A study of Caenorhabditis elegans with 2 samples.

Results

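The mir-58 family genes mir-58a, mir-80, mir-81 and mir-82 (cel-mir-58a, cel-mir-80, cel-mir-81 and cel-mir-82 with the species prefix) are 4 of the 261 microRNA genes annotated in Caenorhabditis elegans. They were examined for occupancy by AMA-1, the largest polypeptide of the polymerase that transcribes them, during early embryogenesis. The genes were chosen by name, with their peak ranks in these data already known, so the ranks, signals and summit positions within 2 kb of them are given as a description, with no test. The study comprised 1 group: 2 biological replicates of chromatin immunoprecipitation followed by sequencing (ChIP-seq) with an antibody against AMA-1. The material was whole early embryos of the wild isolate N2, with no mutation, transgene or treatment in the labels, pooled over both sexes and of unknown age. Because whole embryos were pooled, a peak in few cells with much polymerase and one in many cells with little cannot be told apart.

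MicroRNA genes are transcribed by RNA polymerase II into long primary transcripts, from which Drosha cuts a hairpin and Dicer then cuts the short mature RNA. The mature RNA is loaded into an Argonaute protein and finds messenger RNAs mainly through its seed, the bases after the first one. The mir-58 family is the nematode relative of Drosophila bantam, a microRNA that promotes tissue growth and blocks cell death in the fly. Its members are abundant in worms and act redundantly, and animals that lack the main members together are small, sluggish and poor at laying eggs.

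The mature sequences show what makes these genes a family, and those of RefSeq on the ce11 genome are printed with bases 2 to 8, the seed, in capitals. The first 4 lines are the genes described here, and the other 3 belong to annotated microRNA genes that carry the seed of mir-80, mir-81 and mir-82.
mir-58a: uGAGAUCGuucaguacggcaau
mir-80: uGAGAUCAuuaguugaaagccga
mir-81: uGAGAUCAucgugaaagcuagu
mir-82: uGAGAUCAucgugaaagccagu
mir-58b: aGAGAUCAaccauugagauccaa
mir-58c: aGAGAUCAggcaauagguucaaa
mir-2209a: aGAGAUCAgcgguuacacuaca

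Of 458 mature forms in RefSeq, 6 carried GAGAUCA at bases 2 to 8. The mature mir-58a carried GAGAUCG there, in 1 of the 458 forms, so that it shares with the others bases 2 to 7 but not base 8. The first 22 bases, seed included, were compared position by position, without gaps. By this count mir-81 and mir-82 were identical at 21, and mir-58a and mir-82 at 14. The mature mir-80 was identical to each of the other members at 10. Of the 14 bases past base 8, mir-81 and mir-82 shared 13 by position, and mir-58a and mir-82 shared 7. There mir-80 shared 3 with mir-58a and 2 with each of mir-81 and mir-82. The run ugaaagc occurs in mir-80, mir-81 and mir-82, but starts later in mir-80, so a count by position does not align it.

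The genomic stretches that hold the polymerase summits show how close these lie to the hairpins. For mir-58a and mir-80 the 300 bases around the pooled summit are printed from ce11, 5′ to 3′ on the strand of the gene, with the mature sequence in capitals. The mir-58a stretch is chrIV:3233097-3233396 on the plus strand, with the summit at base 151 and the hairpin from base 158. The mir-80 stretch is chrIII:8865262-8865561 on the minus strand, with the summit at base 150 and the hairpin from base 195.
mir-58a: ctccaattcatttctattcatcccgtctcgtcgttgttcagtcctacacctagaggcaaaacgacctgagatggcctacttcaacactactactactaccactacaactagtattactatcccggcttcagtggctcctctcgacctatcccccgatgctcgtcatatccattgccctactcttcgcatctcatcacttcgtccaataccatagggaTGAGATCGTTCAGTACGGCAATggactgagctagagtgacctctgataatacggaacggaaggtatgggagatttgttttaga
mir-80: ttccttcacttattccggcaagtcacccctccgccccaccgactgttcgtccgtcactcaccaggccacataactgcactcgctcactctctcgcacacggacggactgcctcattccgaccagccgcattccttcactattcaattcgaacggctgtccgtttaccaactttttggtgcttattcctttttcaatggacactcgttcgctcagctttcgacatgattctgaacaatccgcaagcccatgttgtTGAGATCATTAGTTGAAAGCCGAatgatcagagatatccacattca

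For mir-81 and mir-82, whose highest pooled summits lay downstream of the hairpin, only the annotated hairpins are printed, with the mature sequence in capitals. The mir-81 hairpin is chrX:2431072-2431179 on the plus strand and the mir-82 hairpin is chrX:2435258-2435354 on the minus strand.
mir-81: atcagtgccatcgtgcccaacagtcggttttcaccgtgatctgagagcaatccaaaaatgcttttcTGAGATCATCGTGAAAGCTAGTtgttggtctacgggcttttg
mir-82: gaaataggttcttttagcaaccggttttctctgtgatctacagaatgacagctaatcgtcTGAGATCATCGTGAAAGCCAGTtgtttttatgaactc

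Peaks were deposited as a list for each replicate, a list from both replicates pooled, and an optimal list derived from those 3. The replicate and pooled lists held 30000 peaks each and the optimal list 724, which were the 724 peaks of highest signal in the pooled list. The pooled list was deposited as peaks and background together. Its deposited −log10 q-values went down to 0.774, those of replicate 1 to 0.538 and those of replicate 2 to 0.903. Entries far down the pooled and replicate lists are called peaks here but may be background. Signal is the authors' own value for each peak, on a scale not given in the sources used here. Signals were used to rank peaks within a list, rank 1 being the highest, and were not compared between lists. Most peaks had a fixed width, 370 bp in the pooled list, 384 bp in replicate 1 and 364 bp in replicate 2, so that width says little about most loci. Read depth is unknown, which leaves no counting error to give, and the only error is the spread between the 2 replicates. The one control named in the labels was not analysed here.

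Polymerase II was high at 2 of the 4 genes, mir-58a and mir-80, which had an optimal peak with its summit within 2 kb and also within 200 bp. Beside this count, 14.2% of all 261 microRNA genes (37 genes, exact binomial 95% interval 10.2 to 19.0%) and 5.61% of 19973 protein-coding genes had one within 2 kb. The share of microRNA genes was 10.3% within 200 bp, 12.6% within 500 bp, 13.4% within 1 kb and 18.8% within 5 kb. Among the highest 724 peaks of a single replicate the same 2 family genes had one within 2 kb, beside 16.1% of microRNA genes in replicate 1 and 13.4% in replicate 2. Since the 4 genes were chosen with their ranks known, nothing is read from that difference. Neither mir-81 nor mir-82 had an optimal peak within 2 kb. Both had weaker peaks in the pooled list and in each replicate. The order mir-58a, mir-80, mir-82, mir-81 was the same in the pooled list and in both replicates.

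**Figure D1:**
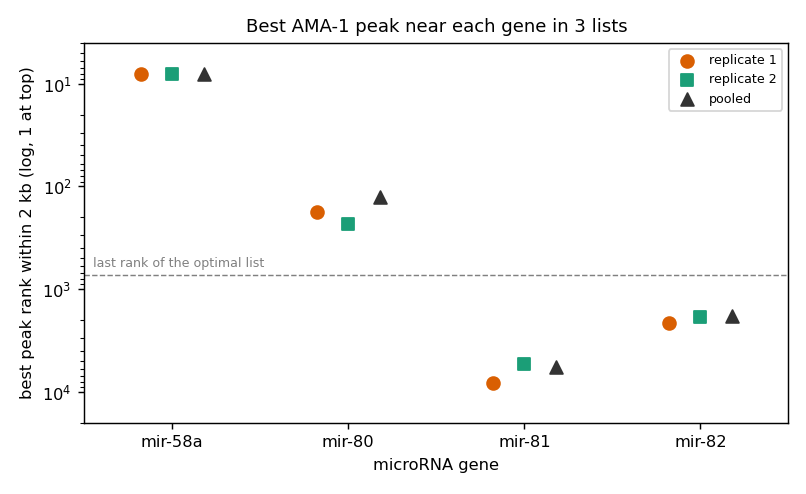
Rank of the highest AMA-1 peak with its summit within 2 kb of each gene, in replicate 1, replicate 2 and the pooled list (log axis, rank 1 at the top, dashed line at the last rank of the optimal list, 724). The points of mir-58a all lie at rank 8, those of mir-80 lie above the line and those of mir-82 and mir-81 below it.

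The gene mir-58a, whose product gives the family its name, lies at chrIV:3233254-3233350 on the plus strand. Its highest peak ranked 8 in replicate 1, 8 in replicate 2 and 8 in the pooled and optimal lists. The deposited signal of that peak was 176.3 in replicate 1, 149.5 in replicate 2 and 312.4 in the pooled list, where the median over the optimal list was 62.1. The summit lay 6 bp upstream of the hairpin's annotated 5′ end in replicate 1, 15 bp upstream in replicate 2 and 7 bp upstream in the pooled list, so the replicate summits were 9 bp apart. The replicates thus differed neither in rank nor, beyond a few bases, in position.

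The mir-58a peak was wider than most in 2 lists, at 743 bp in the pooled list (chrIV:3232844-3233586) and 718 bp in replicate 2. In replicate 1 it was 370 bp wide, below the usual 384 bp of that list. In the pooled list and in replicate 2 the wide region held a second summit, downstream of the hairpin. The second summit was 198 bp past the 5′ end in the pooled list, where it ranked 543 with a signal of 55.4 and was also an optimal peak. In replicate 1 it was a peak of its own, 199 bp past the 5′ end, ranked 81. In replicate 2 it was 186 bp past the 5′ end and ranked 3819. An annotated noncoding RNA gene on the same strand, Y67D8A.7 (chrIV:3233519-3233663), begins 67 bp downstream of the pooled second summit, 66 bp downstream in replicate 1 and 79 bp in replicate 2. The replicates thus gave this second summit nearly the same position and very different ranks. Farther out, a summit 706 bp past the 5′ end ranked 785 in replicate 2. The pooled summit nearest to it, 753 bp past the 5′ end, ranked 3781, and replicate 1 listed none between 199 and 1377 bp. A summit 1966 bp upstream ranked 2331 in replicate 2 and 14104 in the pooled list.

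The gene mir-80 lies on chromosome III (chrIII:8865270-8865367, minus strand) and had the second best ranks of the family. Its highest peak ranked 179 in replicate 1, 233 in replicate 2 and 128 in the pooled and optimal lists. The signal was 46.2 in replicate 1, 41.98 in replicate 2 and 87.9 in the pooled list. The summit lay upstream of the hairpin in every list, 88 bp from its 5′ end in replicate 1, 58 bp in replicate 2 and 45 bp in the pooled list. Both replicates thus put the summit within 100 bp of the hairpin and 30 bp from each other. The only other summit within 2 kb lay downstream, 543 bp past the 5′ end in the pooled list, at rank 1986. It ranked 2371 in replicate 1 and 5586 in replicate 2, below the upstream summit in each.

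The gene mir-82 lies on the X chromosome (chrX:2435258-2435354, minus strand), and no optimal peak was near it. Its highest peak within 2 kb ranked 2138 in replicate 1, 1852 in replicate 2 and 1845 in the pooled list. The signal was 22.3 in replicate 1, 22.1 in replicate 2 and 37.5 in the pooled list. These summits lay past the hairpin rather than before it, 269 bp beyond the 5′ end in replicate 1, 156 bp in replicate 2 and 153 bp in the pooled list. The nearest summits on the upstream side were weak: 286 bp upstream at rank 9472 in replicate 1, 44 bp upstream at rank 9088 in replicate 2, and 273 bp upstream at rank 24667 in the pooled list.

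The gene mir-81 (chrX:2431072-2431179, plus strand) had the weakest peaks of the family, and the replicates did not put the highest one in the same place. It ranked 8137 in replicate 1, 5391 in replicate 2 and 5754 in the pooled list. The signal was 13.5 in replicate 1, 15.0 in replicate 2 and 24.9 in the pooled list. The summit was 1508 bp past the 5′ end in replicate 1 and 1521 bp past it in the pooled list, but 242 bp past it in replicate 2. The highest peak of the 2-kb window was thus a different one in the replicates, with summits 1266 bp apart. Close to the hairpin, replicate 1 listed a summit 72 bp past the 5′ end, inside the hairpin, at rank 11686. Replicate 2 listed one 29 bp upstream at rank 15925, and the pooled list had its nearest summit 279 bp past the 5′ end at rank 9251. No summit within 2 kb of mir-81 ranked above 5391 in any of the 4 lists.

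**Figure D2:**
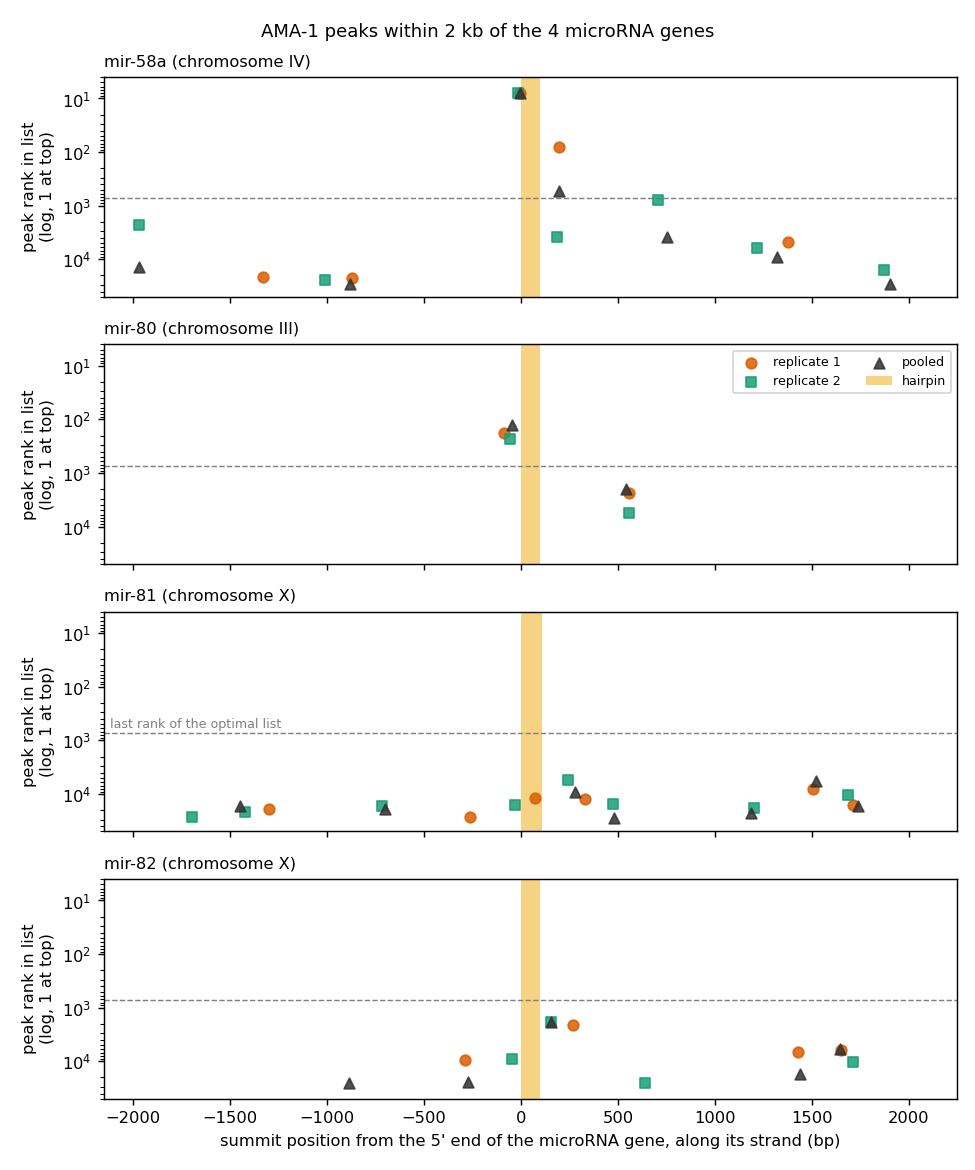
Summits within 2 kb of each gene by distance from its 5′ end along its strand (bp) and by rank in the list (log axis, rank 1 at the top), with the hairpin shaded and a dashed line at the last rank of the optimal list. The summits of highest rank sit just before the hairpin at mir-58a and mir-80 and past it at mir-82, while those at mir-81 are weak and scattered.

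The spread between replicates was smaller than the distance between neighbours in this order. The replicate ranks of mir-58a were equal, those of mir-80 had an SD of 38.2, those of mir-82 of 202 and those of mir-81 of 1942 (n = 2 each). The replicate ranges of the 4 genes did not overlap, which describes how these genes were ordered and is not a test. At the edge of the 2-kb windows, the last pooled summit inside and the first outside were 1966 bp away at rank 14104 and 2108 bp away at rank 24842 for mir-58a. For mir-80 they were 446 bp away at rank 1986 and 4108 bp away at rank 29567. For mir-81 they were 1632 bp away at rank 16627 and 2207 bp away at rank 22378, and for mir-82 1547 bp away at rank 5947 and 2447 bp away at rank 16627.

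Of the 4 genes, 3 lie in introns of protein-coding genes by the Ensembl annotation. The gene mir-58a sits on the same strand as its host Y67D8A.2 (chrIV:3222440-3252604, plus strand), in an intron of 3910 bp (chrIV:3231604-3235513), 10814 bp from the 5′ end of the host. It also overlaps the annotated noncoding RNA Y67D8A.6 (chrIV:3233162-3233303) on the same strand. The highest summit near mir-58a lay inside Y67D8A.6, and outside the hairpin, in the pooled list and in both replicates. The pooled summit of rank 8 was also the highest from 500 bp upstream of the noncoding RNA gene Y67D8A.7 to its 3′ end. Polymerase of mir-58a, of Y67D8A.6, of Y67D8A.7 and of the host thus cannot be told apart there. The host spans 30165 bp, and from 500 bp upstream of it to its 3′ end it held 34 pooled summits, 30 in replicate 1 and 34 in replicate 2. The only 2 optimal summits there were the pair at mir-58a. At the host's own 5′ end, the highest summit within 500 bp ranked 10689 in replicate 2 and 15030 in the pooled list, and replicate 1 listed none. More than 2 kb from mir-58a, the highest summit of the host ranked 1012 in replicate 1, 671 in replicate 2 and 1178 in the pooled list. It lay 5698 bp from the host's 5′ end in replicate 1 and 5237 bp in replicate 2 and the pooled list. The summit beside mir-58a was thus higher in rank than any other summit of the host in all 3 lists.

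Both mir-81 and mir-82 lie in introns of gid-2 (chrX:2429859-2438957, minus strand), on opposite strands. The gene mir-82 has the strand of gid-2 and sits in its intron of 3716 bp (chrX:2435197-2438912), 3603 bp from the 5′ end of gid-2. The gene mir-81 is on the other strand, in an intron of 1013 bp (chrX:2430234-2431246), 7885 bp from that 5′ end. From 500 bp upstream of gid-2 to its 3′ end there were 12 pooled summits, 9 in replicate 1 and 11 in replicate 2, and none was optimal. The highest of them was the one past mir-82, which lay at the border of the intron. In the pooled list it was 5 bp inside the intron from the exon edge and 57 bp past the 3′ end of mir-82, in replicate 2 it was 2 bp from that edge, and in replicate 1 it was 111 bp from it, inside the exon. Because mir-82 lies inside gid-2 on the same strand, polymerase of mir-82 and polymerase of gid-2 cannot be told apart there. For mir-81, on the other strand inside gid-2, they cannot be told apart either, because ChIP-seq has no strand. Within 500 bp of the 5′ end of gid-2 the highest summit ranked 28351 in replicate 2 and 23839 in the pooled list, and replicate 1 listed none.

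**Figure D3:**
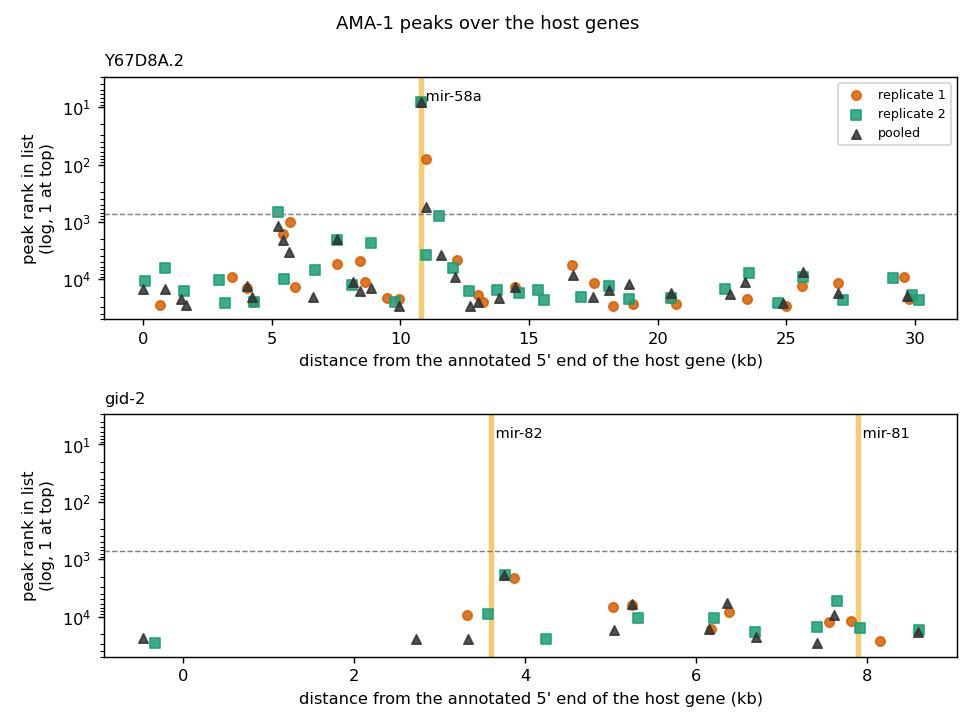
Summits of the 3 peak lists along the host genes Y67D8A.2 (top) and gid-2 (bottom), by distance from the host's 5′ end (kb) and by rank (log axis, rank 1 at the top), with microRNA genes shaded and a dashed line at the last rank of the optimal list. In Y67D8A.2 the summit at mir-58a, rank 8 in each list, stands above all others, and in gid-2 the highest summit, rank 1845 in the pooled list, lies next to mir-82.

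The gene mir-80 lies between protein-coding genes. K01F9.2 is 4732 bp away on one side, and its highest pooled peak ranked 1232. On the other side plg-1 is 12264 bp away, and its highest pooled peak ranked 26257. The mir-80 hairpin overlaps the annotated noncoding RNA K01F9.6 on the opposite strand (chrIII:8865268-8865366), and ChIP-seq has no strand by which to assign the peak to either. A second microRNA gene, mir-238, lies 1961 bp from mir-80 on the same strand. The mir-80 peak was also the highest one within 2 kb of mir-238, so the pair shares 1 peak in any count of microRNA genes. The protein-coding neighbours of mir-58a beyond its host, slmp-1 at 12951 bp and dmd-9 at 19911 bp, had highest pooled ranks of 3930 and 24073. Beside gid-2, gcy-31 had no pooled peak and the highest of T07D1.3 ranked 28636.

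Among the 261 microRNA genes, 126 had a pooled peak within 2 kb. Ordered by the rank of that peak, mir-58a was number 2 in the pooled list and in both replicates. The only microRNA gene before it was mir-52, of another family, which held rank 1 in all 3 lists. The gene mir-80, tied with mir-238, was number 25 in replicate 1, 28 in replicate 2 and 28 in the pooled list. The gene mir-82 was number 54 in replicate 1, 56 in replicate 2 and 56 in the pooled list, and mir-81 was number 88, 77 and 83 in the same lists. The place of mir-81 thus differed more between the replicates than that of the other members.

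**Figure D4:**
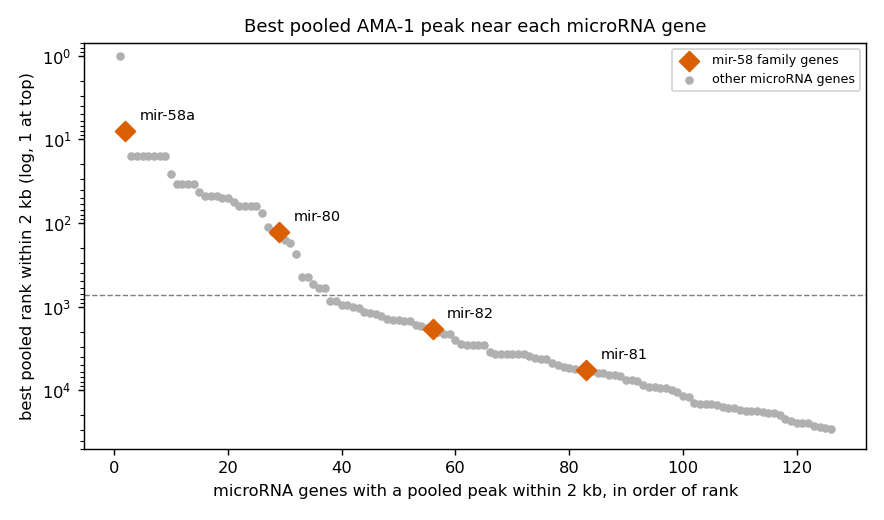
Rank of the highest pooled AMA-1 peak within 2 kb of each microRNA gene that had one (log axis, rank 1 at the top), in order of rank, with the mir-58 family genes as diamonds and a dashed line at the last rank of the optimal list. mir-58a stands near the upper end at rank 8, mir-80 at 128, mir-82 at 1845 and mir-81 at 5754.

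As a share of all microRNA genes, 0.766% had a pooled peak ranked at least as high as that of mir-58a, 11.1% one as high as that of mir-80, 21.5% one as high as that of mir-82 and 31.8% one as high as that of mir-81. All 4 family genes had a pooled peak, with a median highest rank of 986.5 and a median of 6 pooled peaks within 2 kb (2 to 7). Of the other 257 microRNA genes 122 had one, with a median highest rank of 2897 among those 122 and a median of 0 peaks over all 257 (0 to 9). The 4 genes were chosen with their ranks known, so nothing is read from this difference. Their median lies between mir-80 at rank 128 and mir-82 at rank 1845 and describes neither. On X, where mir-81 and mir-82 lie, 8 of 74 microRNA genes had an optimal peak (10.8%, exact binomial 95% interval 4.78 to 20.2%), and on the autosomes 29 of 187 had one (15.5%, 10.6 to 21.5%). These intervals overlap and treat genes that share a peak as separate. Of the other 35 microRNA genes with an optimal peak, the summit of highest rank was upstream in 22, inside the hairpin in 6 and downstream in 7, but clusters repeat 1 peak over several genes, and 1 of the 35 is mir-238 with the mir-80 peak. With each of the 17 distinct peaks away from the family counted once, by its nearest microRNA gene, 7 summits were upstream, 6 inside and 4 downstream, and 11 lay within 100 bp of the hairpin.

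The microRNA genes outside the family with the most similar ranks were found among 107 with a peak in the pooled list and in both replicates, by the sum of absolute log10 rank differences over the 3 lists. For mir-58a, 7 genes tied at a sum of 1.09, mir-35 to mir-41, whose shared peak in the mir-35 embryonic cluster ranked 15 in replicate 1, 26 in replicate 2 and 16 in the pooled list. For mir-80 they were mir-238, which has the same peak, and mir-72 at 0.401, with ranks of 180, 427 and 175 in the same lists. For mir-82 they were mir-5549 at 0.243 (2667, 2083 and 1481) and mir-787 at 0.265 (1730, 1287 and 1781). For mir-81 they were mir-57 at 0.181 (7521, 6924 and 6282) and mir-244 at 0.250 (8565, 5829 and 3682). The measure compares ranks in these libraries only.

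The other 3 genes whose mature form carries GAGAUCA had weak peaks or none. The genes mir-58b and mir-58c lie side by side on chromosome IV and share their highest summit, upstream of both. It ranked 4762 in replicate 1 and 7442 in the pooled list, and replicate 2 had no peak within 2 kb of either. The third such gene, mir-2209a, had a peak in replicate 1 only, at rank 9647. Of the genes named with it, whose mature forms in RefSeq do not carry the seed, mir-2209c shares that peak, and for mir-2209b the highest peak ranked 21541 in replicate 1, 20953 in replicate 2 and 24292 in the pooled list. None of these genes had an optimal peak within 2 kb.

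The sequence around the summits was described because base composition and repeats can affect where reads are placed. The 300 bases around the highest pooled summit were 47% G and C at mir-58a, 49.7% at mir-80, 51% at mir-81 and 37.7% at mir-82. Over all optimal summits the median was 41.7% (quartiles 38.3 to 45.3%). The nuclear genome taken as a whole, not as a median over windows, was 35.4% G and C. Every run of 31 bases in the 4 hairpins and in these 4 stretches occurred once in the genome, on either strand. Over the whole 2-kb windows 97.7% of such runs were unique at mir-58a, 78.9% at mir-80, 96.6% at mir-81 and 99.7% at mir-82. The part of this in the number of summits listed near mir-80 was not tested.

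From 250 bp upstream of the hairpin's 5′ end to 50 bp past it, 3 fixed words were searched on both strands. TATAAA was found at 0 of the 4 genes, against 28.7% of all microRNA genes and 37.9% of protein-coding genes. CCCGCC was found at 3 of the 4, on the gene's strand 215 bp upstream of mir-58a and 128 bp upstream of mir-82 and on the other strand 238 bp upstream of mir-80, against 15.7% of microRNA genes and 6.48% of protein-coding genes. GAGAGA was found at mir-80 and mir-82, against 24.1% of microRNA genes and 21.8% of protein-coding genes. At mir-82, the matches that start from 205 to 195 bp upstream overlap each other in a GA repeat. The start of the primary transcript is not annotated for these genes, so the window need not be the promoter, and a match shows only that the letters are there. The words were chosen with earlier results of these data known, so nothing is read from these counts.

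Genes for the proteins that make and use microRNAs were looked up in the peak lists. Of 10 genes of this machinery, 1 had an optimal summit along the gene or in the 500 bp before it, where 2.56% of 19973 protein-coding genes had one. That gene was xrn-2, an exonuclease that degrades mature microRNAs, whose peak ranked 384 in replicate 1, 561 in replicate 2 and 367 in the pooled list, with the pooled summit 249 bp from the 5′ end. All 10 had a pooled peak, with a median highest rank of 3703, whereas 6788 of all 19973 protein-coding genes had one, with a median of 7003.5. The window spans the whole gene, and these 10 genes were 2513 to 10263 bp long. The part of gene length in this difference was not tested. The Argonaute gene alg-1, picked for mention from its own values, ranked 281 in replicate 1, 884 in replicate 2 and 894 in the pooled list. Its pooled summit lay 7058 bp from the 5′ end of a gene of 7152 bp, near the 3′ end. The highest pooled ranks were 5689 for drsh-1, which encodes Drosha, 7188 for dcr-1, which encodes Dicer, and 27564 for pash-1, which encodes the partner of Drosha.

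Of 7 genes described as targets of the family, 1 had an optimal peak, cbp-1, which encodes a histone acetyltransferase of the CBP and p300 kind. Its peak ranked 107 in replicate 1, 847 in replicate 2 and 219 in the pooled list, 4407 bp from the 5′ end, so replicate 2 alone would place it outside its highest 724 peaks. The BMP-like ligand gene dbl-1, its receptor gene sma-6 and the cell death activator egl-1 had no peak in any list. A pooled peak was present at 4 of the 7, with a median highest rank of 4923. In the TGF-beta pathways, which set body size and dauer entry, 0 of 14 genes had an optimal peak, beside the same 2.56%. A pooled peak was present at 9 of the 14, with a median highest rank of 6368. The highest, again picked from its values, was sma-9, a zinc finger protein that acts with the Smads, at 399 in replicate 1, 420 in replicate 2 and 960 in the pooled list. The target and pathway lists share 4 genes (dbl-1, sma-6, daf-1 and daf-4), so their counts overlap. Nothing is read from counts this small.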

How the data were processed

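AMA-1 ChIP-seq peaks of 2 biological replicates were analysed as the authors deposited them, on ce11. Per the labels' text notes, replicate lists came from each replicate with the control, the pooled list from both, and the optimal list from all 3. Not given in the sources used here were the aligner, the peak caller and its threshold. The deposited signal per peak was used only for ranks within a list, and the deposited −log10 q-values were not used for any call. They were 3.58, the maximum of the pooled list, throughout the optimal list and also at the highest pooled peak of mir-82. At the highest pooled peak of mir-81 the value was 2.22. The ce10 lists were not used.

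Summits were assigned within 2 kb of genes of Ensembl release 115, and sequences were read from the RefSeq ce11 genome and annotation, with Python 3.11.15, pandas 2.3.3, numpy 2.4.6 and scipy 1.17.1. The assignment was tested on simulated peaks. Members, gene lists and words searched were chosen with earlier results of these data known. Genes named were the members, their seed relatives, hosts and neighbours, the 2 microRNA genes closest in rank to each (ties included), and list genes with an optimal peak, with exceptions stated. With 1 group and no reads, no test was run. Alternatives were other windows, overlap in place of summits, merged regions, other thresholds and each replicate alone.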

Additional observations from a re-analysis of the deposited data

How the results depend on the processing

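The rank of mir-58a stayed at 8 in each replicate alone, and the number of the 4 genes with an optimal peak stayed at 2 except with the upper 2000 pooled peaks, where it was 3. Leaving out a replicate, ranks spanned 179 to 233 for mir-80, 1852 to 2138 for mir-82 and 5391 to 8137 for mir-81. Summit offsets from the 5′ end then spanned -15 to -6 bp for mir-58a, -88 to -58 bp for mir-80, 156 to 269 bp for mir-82 and 242 to 1508 bp for mir-81. The middle of the mir-58a peak lay at -39 bp. For mir-81 the best pooled rank was 9251 with windows of 500 bp or 1 kb and 1845 with 5 kb, which reaches the mir-82 peak. With the upper 2000 pooled peaks, 56 microRNA genes had one within 2 kb in place of 37. For the gene lists, by alternatives chosen after seeing the data, that threshold gave 3 genes of the machinery and 2 of the TGF-beta pathways, and single replicates gave 1 to 2, 0 to 1 for targets and 1 to 2 for TGF-beta. Of all recomputed values, 48 stayed within the replicate spread or 1.5 times the count and 19 moved. Only summit offsets could change sign, and 0 did. Values of single replicates were judged against the spread of the same 2 replicates, so this tally does not measure robustness. No paired analysis was possible because there is 1 group. Depth is unknown, so no detection limit can be given for the weak peaks at mir-81.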
